A study of Caenorhabditis elegans with 6 samples.

Results

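The genes described here are ctsa-4.1, a worm homolog of the lysosomal enzyme cathepsin A, and pcp-1, pcp-2, pcp-3, pcp-4 and pcp-5, which the table annotates as prolyl carboxypeptidase-like. They were taken by name, and all 6 were found among the 22416 genes with counts. The list was chosen by measured values in part: ctsa-4.1 entered it because of its difference between worms fed gtr-1 RNAi bacteria and worms fed bacteria with an empty vector. For this reason the fold changes and calls of the 6 genes in that contrast are given as a description and support nothing by themselves.

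Both enzyme types are serine peptidases that remove amino acids from the carboxyl end of proteins or peptides. In mammals, cathepsin A is a lysosomal carboxypeptidase that also shields a beta-galactosidase and a neuraminidase from breakdown by holding them in a complex. Mammalian prolyl carboxypeptidase cuts off a residue that follows a proline, and peptide hormones are among its substrates. The Caenorhabditis elegans genes carry these names by similarity, and the files assign them no substrate.

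The libraries came from pools of whole CL2006 worms, whose transgenes are a human amyloid beta minigene under unc-54 control (plasmid pCL12) and the marker plasmid pRF4. Such a minigene is driven in body wall muscle, so the peptide is made away from the intestine and the neurons, and every library carried it. One set of worms ate HT115 bacteria with an RNAi construct for gtr-1, aimed at its 3' untranslated region. The other worms ate HT115 bacteria with an empty vector. Both diets were kept for 2 generations at 20 °C, and the second generation was collected on day 6 of adulthood. Each diet had 3 libraries, 1 in each of the batches labelled 2, 3 and 4, with total counts from 43067539 to 59812227. Beyond a mention of 3 sets of worms, the labels do not say how separate the batches were, so p-values measure the spread between these libraries, which may be technical.

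Levels are counts scaled to the library size (CPM) after scaling the libraries with TMM factors, which correct for differences in composition. The RNAi target gtr-1 was not lower in the libraries that carry its RNAi label, called RNAi-labelled below. It had 38, 26 and 11 counts in the RNAi-labelled libraries of batches 2, 3 and 4, against 32, 16 and 12 counts in the empty vector libraries. Its log2 fold change was 0.13 ± 0.30 (SE). Every direction given below therefore rests on the label. Markers of intestine, body wall muscle, pharynx, hypodermis, neurons, sperm, germline and coelomocytes were all counted, and none of the 70 marker genes found was at 0 in every library.

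The 6 genes lie on 4 chromosomes. In WBcel235, ctsa-4.1 (WBGene00019605) is on chromosome II from 6366996 to 6369091 on the plus strand. pcp-1 (WBGene00003956, 7758903 to 7761262, plus strand) and pcp-5 (WBGene00022801, 7904943 to 7907615, minus strand) are on chromosome III. On chromosome IV, pcp-3 (WBGene00003958, 9155148 to 9159019) and pcp-2 (WBGene00003957, 9160588 to 9165127) are neighbouring protein-coding genes on the minus strand, with 1 annotated piRNA gene between them. pcp-4 (WBGene00003959) is on chromosome V from 19822734 to 19831011 on the minus strand.

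The genes fall into a short and a long class by their annotated coding length. The coding length was 1410 bases for ctsa-4.1, 1521 bases for pcp-5 and 1695 bases for pcp-1. It was 3240 bases for both pcp-2 and pcp-3 and 3126 bases for pcp-4. The sources used here do not give how the counting treated reads that fit several genes, so the counts of the neighbours pcp-2 and pcp-3 are less certain where their sequences are alike.

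Per kilobase of exon, pcp-5 and ctsa-4.1 were the most abundant of the 6 in the RNAi-labelled libraries and pcp-4 was the least. The level of ctsa-4.1 was 37.9 ± 9.95 CPM per kilobase in the RNAi-labelled libraries and 14.5 ± 3.67 CPM per kilobase in the empty vector libraries (SD, n = 3 each). For pcp-5 the level was 33.8 ± 5.61 CPM per kilobase in the RNAi-labelled libraries and 25.995 ± 2.42 CPM per kilobase in the empty vector libraries. By its mean ctsa-4.1 stood in place 1 of 6 in RNAi-labelled libraries and in place 3 in empty vector libraries. pcp-5 stood in place 2 in RNAi-labelled libraries and in place 1 in empty vector libraries.

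Of the other members, pcp-3 was at 13.8 ± 1.65 CPM per kilobase in the RNAi-labelled libraries and at 14.8 ± 4.999 CPM per kilobase in the empty vector libraries. pcp-2 was at 9.67 ± 0.795 CPM per kilobase in RNAi-labelled libraries and at 6.76 ± 0.886 CPM per kilobase in empty vector libraries. pcp-1 was at 8.66 ± 2.40 CPM per kilobase in RNAi-labelled libraries and at 9.04 ± 6.08 CPM per kilobase in empty vector libraries. pcp-4, at 4.54 ± 1.17 CPM per kilobase in RNAi-labelled libraries and 3.76 ± 1.16 CPM per kilobase in empty vector libraries, was lowest in all 6 libraries.

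The ranges of some neighbours in this order overlapped. In the RNAi-labelled libraries the ranges of ctsa-4.1 and pcp-5 overlapped, as did those of pcp-2 and pcp-1. In the empty vector libraries the ranges of pcp-3 and ctsa-4.1 overlapped, as did those of pcp-1 and pcp-2. The ranges of ctsa-4.1 and pcp-1 also overlapped there, but ctsa-4.1 was above pcp-1 within each of the 3 libraries. pcp-5 lay above pcp-3 without overlap in both groups.

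**Figure D1:**
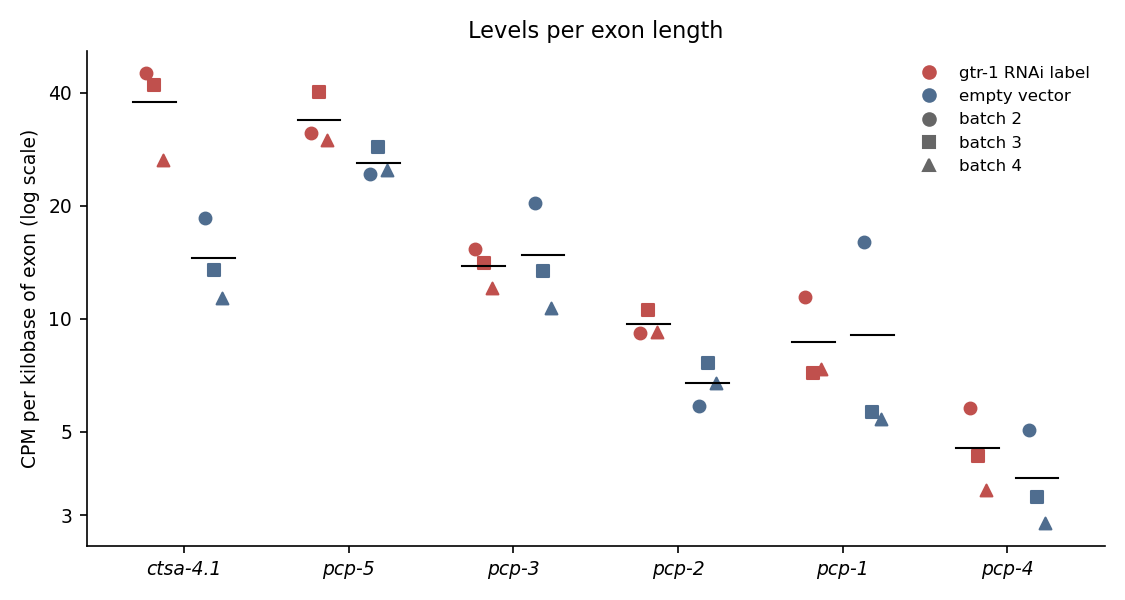
Level of each gene in CPM per kilobase of exon, on a log axis, in the 3 RNAi-labelled libraries (red, left of each pair) and the 3 empty vector libraries (blue); marker shapes are batches and black lines are group means. The ctsa-4.1 mean is 37.9 in RNAi-labelled libraries and 14.5 in empty vector libraries, and pcp-4 is the lowest gene in every library.

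ctsa-4.1 was the member with the widest separation between the diets. Its level was 77.4, 72.2 and 45.5 CPM in the RNAi-labelled libraries of batches 2, 3 and 4, against 31.8, 23.2 and 19.5 CPM in the empty vector libraries. The lowest RNAi-labelled library lay above the highest empty vector library, and in both groups batch 4 was the lowest. The means were 65.03 ± 17.1 CPM in RNAi-labelled libraries and 24.8 ± 6.30 CPM in empty vector libraries (SD, n = 3 each). The ratio within a batch was 2.43, 3.11 and 2.33 for batches 2, 3 and 4. The fitted log2 fold change was 1.38 ± 0.09 (SE), a 2.60-fold difference. Ordered from the most positive log2 fold change down, ctsa-4.1 ranked 92 among the 15519 genes tested.

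The annotated exons of ctsa-4.1 share 7 bases with clec-88, a C-type lectin gene on the same strand that ends where ctsa-4.1 begins. These bases are 0.408% of the exon length of ctsa-4.1. clec-88 was at 299.7, 497 and 517 CPM in the RNAi-labelled libraries of batches 2, 3 and 4 and at 299, 494 and 459 CPM in the empty vector libraries, and its log2 fold change was 0.06 ± 0.05 (SE). The difference of ctsa-4.1 was thus not shared by the gene it overlaps. On its other side the nearest annotated gene, linc-27, had counts of 9, 6 and 2 in RNAi-labelled libraries and 11, 3 and 1 in empty vector libraries.

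pcp-2 was next in size. Its level was 32.7, 37.7 and 32.9 CPM in the RNAi-labelled libraries of batches 2, 3 and 4, against 20.9, 27.2 and 24.0 CPM in the empty vector libraries. The groups did not overlap, and batch 3 was the highest in both. The fitted log2 fold change of pcp-2 was 0.52 ± 0.07 (SE), or 1.44-fold.

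pcp-5, the most abundant pcp gene per kilobase, was at 53.4, 68.8 and 51.2 CPM in the RNAi-labelled libraries of batches 2, 3 and 4, against 41.7, 49.2 and 42.5 CPM in the empty vector libraries. Here too the groups did not overlap and batch 3 was the highest in both. The fitted log2 fold change of pcp-5 was 0.37 ± 0.06 (SE), or 1.29-fold. The nearest gene on one side of pcp-5, best-24 on the opposite strand at 469 bases, was at 18.1, 14.9 and 8.15 CPM in RNAi-labelled libraries against 24.8, 19.7 and 14.4 CPM in empty vector libraries (log2 fold change -0.56 ± 0.11, SE).

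pcp-4 had the same sign in every pair, on overlapping groups. Its level was 18.6, 13.8 and 11.2 CPM in the RNAi-labelled libraries of batches 2, 3 and 4, against 16.2, 10.7 and 9.15 CPM in the empty vector libraries. Within each group it was highest in batch 2 and lowest in batch 4. The fitted log2 fold change of pcp-4 was 0.28 ± 0.09 (SE).

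**Figure D2:**
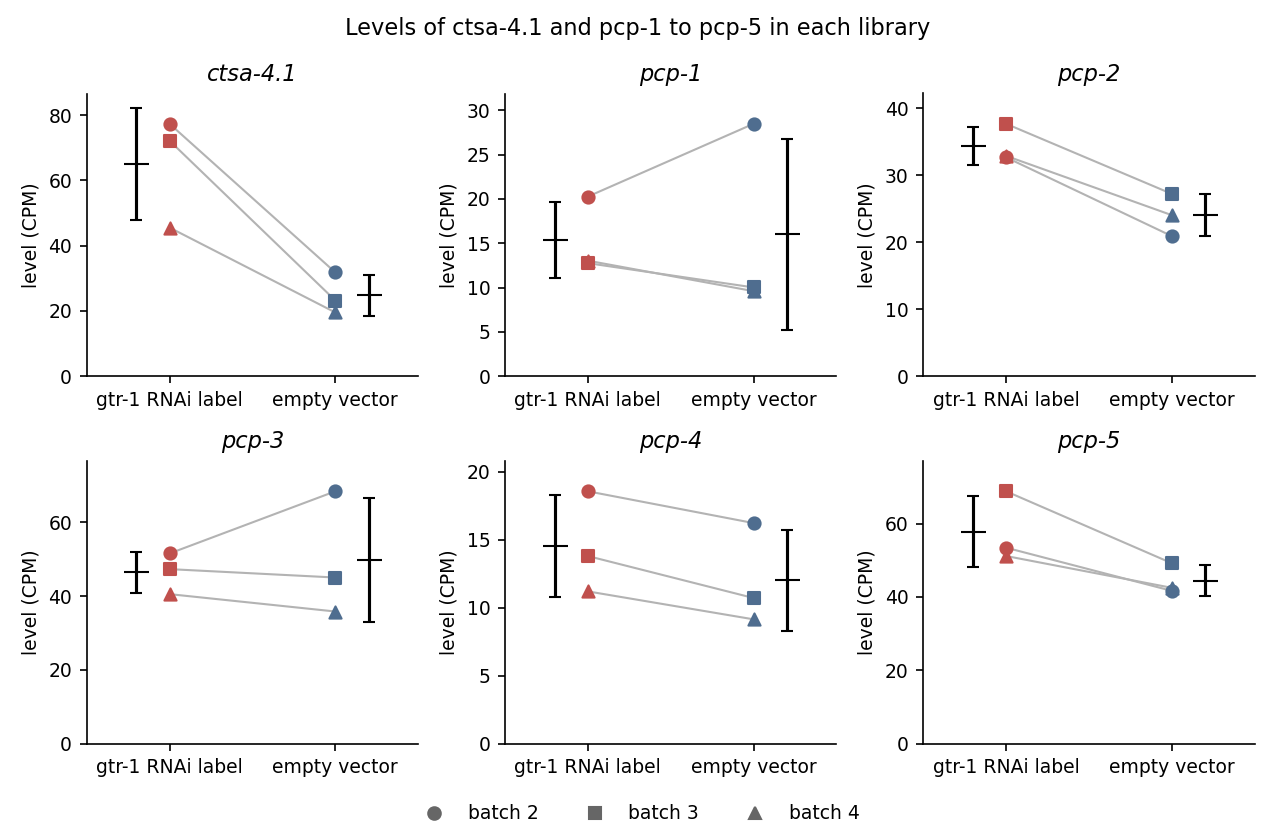
Level in CPM of each gene in each library, with the RNAi-labelled libraries on the left and the empty vector libraries on the right of each panel; grey lines join libraries of 1 batch, and black marks are the mean ± SD of 3 libraries. ctsa-4.1, pcp-2 and pcp-5 have no overlap between the groups, and the batch 2 lines of pcp-1 and pcp-3 slope the other way from those of batches 3 and 4.

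pcp-1 and pcp-3 differed between batches in the sign of the contrast. The level of pcp-1 was 20.3, 12.8 and 13.0 CPM in the RNAi-labelled libraries of batches 2, 3 and 4, against 28.5, 10.0 and 9.59 CPM in the empty vector libraries. The batch 2 empty vector library was the highest of the 6, and the groups overlapped. Within batches 2, 3 and 4 the log2 ratio of pcp-1 was -0.49, 0.35 and 0.44.

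The level of pcp-3 was 51.6, 47.3 and 40.6 CPM in the RNAi-labelled libraries of batches 2, 3 and 4, against 68.5, 45.1 and 35.8 CPM in the empty vector libraries. Again the batch 2 empty vector library was the highest, and the groups overlapped. Within batches 2, 3 and 4 the log2 ratio of pcp-3 was -0.41, 0.07 and 0.18. Over the 3 pairs the fitted log2 fold change was 0.09 ± 0.20 for pcp-1 and -0.05 ± 0.12 for pcp-3 (SE). With 1 library per diet and batch, a difference between batches in the effect of the diet was not tested. Without batch 2, the log2 fold change was 0.40 for pcp-1 and 0.13 for pcp-3.

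**Figure D3:**
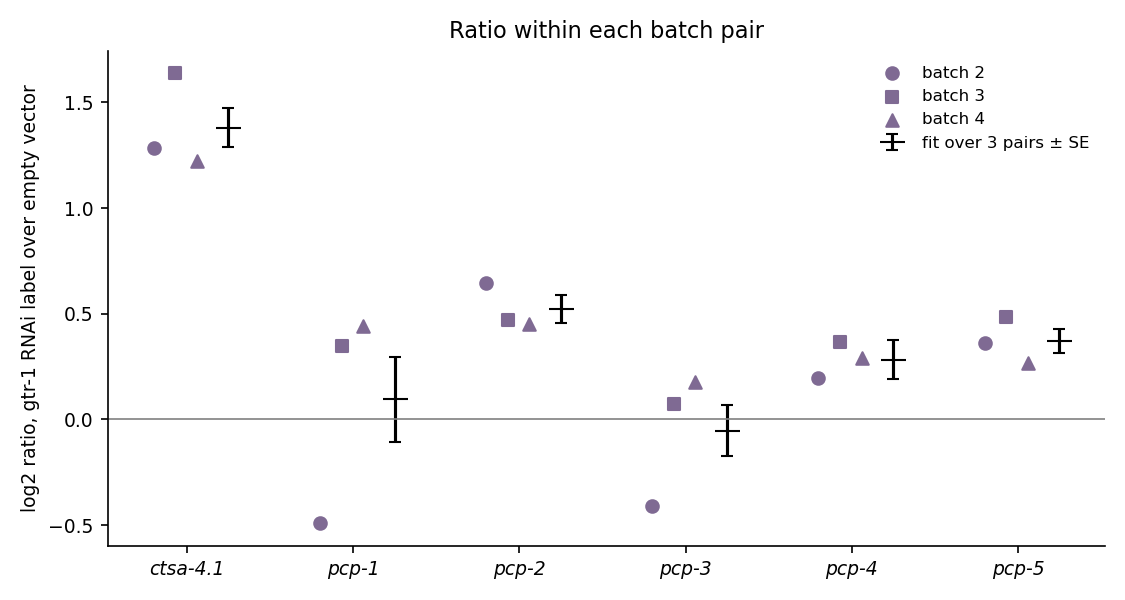
Log2 ratio of the RNAi-labelled library over the empty vector library of the same batch for each gene (purple), beside the fitted log2 fold change over the 3 pairs with its SE (black). The values of ctsa-4.1 lie between 1.22 and 1.64, and those of pcp-1 and pcp-3 are below 0 in batch 2 alone.

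Set against all genes, 4 of the 6 were higher in RNAi-labelled libraries in all 3 pairs (ctsa-4.1, pcp-2, pcp-4 and pcp-5), where 13.5% of the 15519 genes tested were. Groups that did not overlap, with every RNAi-labelled library above every empty vector library, were seen for 3 of the 6 and for 2.92% of the genes tested. In edgeR, ctsa-4.1 was the 1 member called higher at an adjusted p under 0.05, a call known when the list was drawn up, and 0.0902% of the genes tested were called higher. These shares carry no test of the 6 genes, since the list was drawn up with this contrast known. Over all genes, 14 were called higher and 0 lower in edgeR (775 and 882 with unadjusted p below 0.05), 143 and 71 in edgeR with DESeq2 size factors, and 244 and 97 in DESeq2. The call of ctsa-4.1 was lost without the batch as a block, with a minimum count of 50, and when the batch 4 pair or 1 library of that pair was left out.

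Levels of tissue markers differed along the same contrast. The summed level of the 12 intestine markers found ran from 77248 to 96219 CPM in the RNAi-labelled libraries and from 48449 to 73183 CPM in the empty vector libraries, with 11 of 12 above a log2 fold change of 0 and a median of 0.41. In edgeR, 0 intestine markers were called (6 higher and 1 lower with unadjusted p below 0.05), and DESeq2 called 6 higher and 1 lower. The summed level of the 8 body wall muscle markers in batches 2, 3 and 4 was 4117, 3743 and 2543 CPM in RNAi-labelled libraries. In empty vector libraries it was 4087, 3324 and 3125 CPM, so the sum was lower under the RNAi label in batch 4 alone. In edgeR, 0 muscle markers were called (0 higher and 2 lower with unadjusted p below 0.05), and DESeq2 called 1, mlc-2, lower. The median log2 fold change of the muscle markers was -0.20, and 1 of 8 was above 0. That 1 was unc-54 (0.14 ± 0.10, SE), whose control sequences also drive the transgene in every library. Whether transgene reads entered the counts of unc-54, or of the hypodermis marker rol-6, was not tested. The sperm markers had the median farthest from 0, at -0.67 over the 23 tested, with 1 of 23 above 0. Their summed level ran from 11.9 to 215 CPM in RNAi-labelled libraries and from 37.8 to 217 CPM in empty vector libraries, and edgeR called 0 (0 higher and 6 lower with unadjusted p below 0.05) and DESeq2 1, msp-59, lower. The median was 0.40 for the pharynx markers, with 3 of 4 above 0, and 0.33 for the hypodermis markers, with 5 of 5 above 0. Of the hypodermis markers, edgeR called 0 (1 higher and 0 lower with unadjusted p below 0.05) and DESeq2 1, col-19, higher. The median was 0.06 for neurons (4 of 6 above 0), -0.04 for oocytes and germline (0 of 8) and 0.17 for coelomocytes (3 of 3). Among pharynx, neuron, germline and coelomocyte markers, edgeR and DESeq2 called 0, and 1 germline marker was lower with unadjusted p below 0.05 in edgeR. In libraries of whole animals, fewer cells of a type and less RNA per cell cannot be told apart, and the part of these tissue differences in the values of the 6 genes was not tested.

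Differences between batches were not part of the rule that chose the genes, and they were tested in the same fit. 5 of the 6 differed between batches at an adjusted p under 0.05 (edgeR, both batch terms together), where 43.3% of the 15519 genes tested did. The adjusted p was 0.0105 for pcp-4, 0.0143 for ctsa-4.1, 0.0250 for pcp-1, 0.0267 for pcp-5 and 0.0433 for pcp-3, from edgeR. pcp-2 did not pass in edgeR (adjusted p = 0.0764). Batch differences were thus common in these libraries, and they ran in unlike directions among the 6 genes.

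ctsa-4.1, pcp-1, pcp-3 and pcp-4 were highest in batch 2. Relative to batch 2, the log2 level of pcp-1 was lower by about the same amount in both later batches, with values of -1.11 ± 0.25 in batch 3 and -1.12 ± 0.25 in batch 4 (SE). The log2 level of pcp-4 relative to batch 2 was -0.51 ± 0.11 in batch 3 and -0.78 ± 0.11 in batch 4. For ctsa-4.1 it was -0.27 ± 0.11 in batch 3 and -0.73 ± 0.11 in batch 4.

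For pcp-3 the log2 level relative to batch 2 was -0.37 ± 0.15 in batch 3 and -0.65 ± 0.15 in batch 4. pcp-5 had another pattern: its log2 level relative to batch 2 was 0.30 ± 0.07 in batch 3 and -0.02 ± 0.07 in batch 4. The values of pcp-2 had the same shape as those of pcp-5, at 0.29 ± 0.08 in batch 3 and 0.10 ± 0.08 in batch 4.

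The excess of batch 2 was seen in both diets for pcp-1, but in unequal size. In the RNAi-labelled libraries, pcp-1 in batch 2 was 1.57 times the mean of batches 3 and 4, and in the empty vector libraries it was 2.91 times. For pcp-3 these ratios were 1.17 in RNAi-labelled libraries and 1.69 in empty vector libraries, and for pcp-4 they were 1.48 in RNAi-labelled libraries and 1.63 in empty vector libraries. The calls between batches rested on few libraries and changed with those left out, among the 6 genes and among all genes. Without the batch 4 RNAi-labelled library, 0 of the 6 were called (5 with unadjusted p below 0.05), and 3322 of 16227 genes tested. Of the 6, 2 were called without the empty vector library of batch 3 (5394 of 16289 genes) or of batch 4 (4018 of 16264). Also 2 were called without batch 2 (356 of 15147 genes) or without batch 4 (4633 of 16134). Without the batch 2 RNAi-labelled library 6 were called (7394 of 15673 genes), and without its empty vector library 5 (7537 of 15597). Without batch 3 or its RNAi-labelled library 4 were called (8036 of 16177 and 5640 of 16219 genes).

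Sperm markers set batch 2 apart as well. The summed level of the 24 sperm markers in batches 2, 3 and 4 was 215, 28.3 and 11.9 CPM in RNAi-labelled libraries and 217, 49.4 and 37.8 CPM in empty vector libraries. The summed pharynx markers were 229, 177 and 79.1 CPM in RNAi-labelled libraries and 268, 88.4 and 59.05 CPM in empty vector libraries. The summed hypodermis markers were 708, 370 and 255 CPM in RNAi-labelled libraries and 542, 301 and 284 CPM in empty vector libraries. Oocyte and germline markers were lowest in batch 2, with sums of 5106, 7824 and 8356 CPM in RNAi-labelled libraries and 5577, 7827 and 8256 CPM in empty vector libraries. The part of these tissues in the batch differences of pcp-1, pcp-3, pcp-4 and ctsa-4.1 was not tested.

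**Figure D4:**
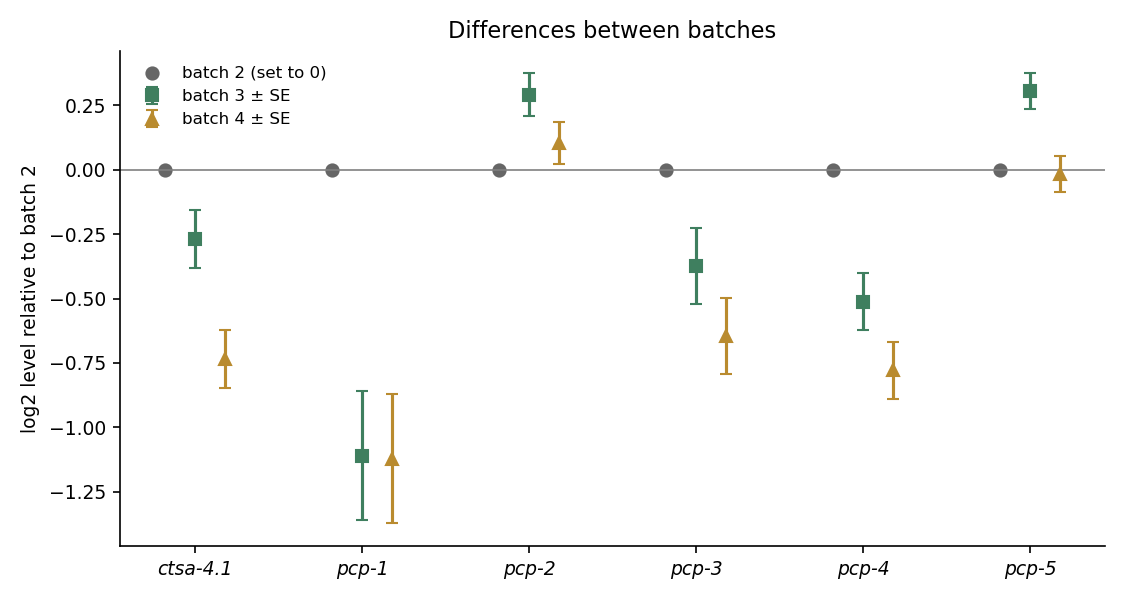
Fitted log2 level of each gene in batches 3 and 4 relative to batch 2 (set to 0), with SE, from the model with diet and batch. ctsa-4.1, pcp-1, pcp-3 and pcp-4 lie below 0 in both later batches, while pcp-2 and pcp-5 are highest in batch 3.

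The profile of each gene over the 6 libraries was compared with those of all genes with a mean of 10 CPM or more, as the root mean square distance between log2 levels after each gene's mean was removed. For ctsa-4.1, whose own profile had a root mean square of 0.76, the 5 nearest genes were C50F7.5 at a distance of 0.19, hrg-7 at 0.20, F43H9.4 at 0.20, R08E5.3 at 0.25 and F37H8.5 at 0.26. hrg-7, which the table annotates as an aspartic protease, was at 1011, 983 and 626 CPM in the RNAi-labelled libraries of batches 2, 3 and 4 and at 442, 424 and 349 CPM in the empty vector libraries. The table annotates F37H8.5 as a protein like GILT, the thiol reductase of mammalian lysosomes, F43H9.4 as like a glycine N-acyltransferase and R08E5.3 as a protein with a methyltransferase domain. These distances rest on 6 libraries of 2 diets and 3 shared batches and are a description.

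pcp-2 was nearest to C17F4.7 at 0.06, Y102A11A.3 at 0.06 and spp-14, a gene of the saposin type, at 0.07. pcp-5 was nearest to far-1, a fatty acid and retinol binding protein, at 0.06, then to rnst-2, a ribonuclease of the T2 type, at 0.08 and to far-2 at 0.08. The profiles of pcp-2 and pcp-5 lay 0.12 apart, which made pcp-5 number 21 in order of nearness to pcp-2. This pair was named after the values were seen.

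The profile of pcp-1 was nearest to moe-3, a CCCH zinc finger gene, at 0.10, to spp-8 at 0.11 and to F32D8.12 at 0.12. pcp-3 was nearest to Y51A2D.13 at 0.06, F46G10.1 at 0.07 and F19C7.2 at 0.07. pcp-4 was nearest to asg-2, an ATP synthase subunit, at 0.06, K09G1.1 at 0.06 and slcr-46.3 at 0.06. No member was among the 3 nearest genes of another member.

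The other genes named ctsa, 6 in the table, also had counts enough for the test. In edgeR, 0 of these 6 were called in either direction, 4 were higher and 0 lower with unadjusted p below 0.05, and DESeq2 called 3 higher (ctsa-2, ctsa-3.1 and ctsa-4.2). Their median log2 fold change was 0.46, beside -0.03 over all 15519 genes tested, and 5 of 6 were higher in RNAi-labelled libraries in all 3 pairs. Of the 15519 genes tested, 775 were higher and 882 lower with unadjusted p below 0.05, and 13.5% were higher in all 3 pairs. DESeq2 called 244 of them higher and 97 lower. The ctsa list too was drawn up with earlier results known, so its counts are a description.

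ctsa-4.2, the gene that shares its number with ctsa-4.1, lies on chromosome III (WBGene00021503, 6612528 to 6615149). Its level was 96.2, 95.7 and 59.9 CPM in the RNAi-labelled libraries of batches 2, 3 and 4, against 43.5, 50.4 and 44.1 CPM in the empty vector libraries. The groups did not overlap, and the fitted log2 fold change of ctsa-4.2 was 0.84 ± 0.14 (SE, edgeR adjusted p = 0.133). ctsa-2 was at 211, 166 and 148 CPM in RNAi-labelled libraries and at 185, 119.5 and 118.98 CPM in empty vector libraries, and its log2 difference in the fit was 0.33 ± 0.06 (SE; adjusted p from edgeR = 0.173).

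Per kilobase of exon, ctsa-1.1 was at 299.96 ± 17.8 CPM in the RNAi-labelled libraries and 275 ± 36.6 CPM in the empty vector libraries, well above any of the 6 members. ctsa-1.2 was at 279.9 ± 46.4 CPM per kilobase in RNAi-labelled libraries and 167 ± 64.8 CPM per kilobase in empty vector libraries. ctsa-3.2 was near the floor of the table, with counts of 41, 35 and 14 in RNAi-labelled libraries and 41, 22 and 28 in empty vector libraries. The 6 ctsa genes outside the list thus span levels both above and below that of ctsa-4.1.

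**Figure D5:**
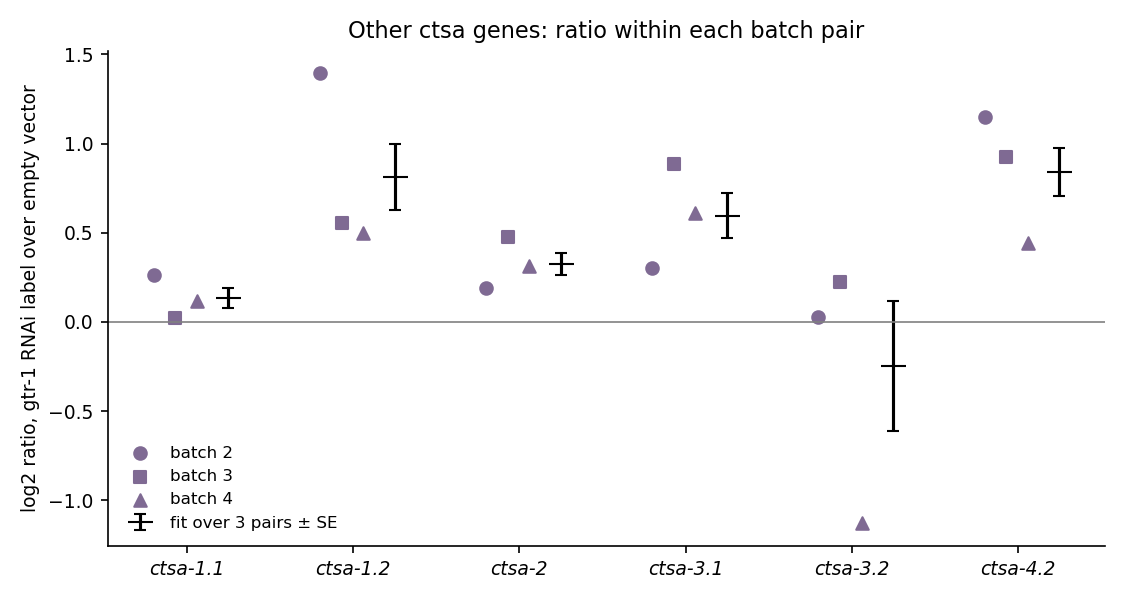
Log2 ratio of the RNAi-labelled library over the empty vector library of the same batch for the other 6 ctsa genes (purple), with the fitted log2 fold change and its SE (black). ctsa-4.2 and ctsa-1.2 lie above 0 in every pair with fitted values of 0.84 and 0.81, and ctsa-3.2, on counts of 14 to 41, is at -1.13 in batch 4.

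Other peptidases that act on proline bonds or on the ends of proteins, and trypsin-like serine proteases, had fitted medians near 0. Of 9 prolyl and dipeptidyl peptidases found by name, 0 were called in edgeR (0 with unadjusted p below 0.05) and 0 in DESeq2, with a median log2 fold change of 0.01. The smallest p in this list was that of dpf-2, a dipeptidyl peptidase, with a log2 fold change of 0.31 ± 0.15 (SE), and K12C11.1 followed at 0.10 ± 0.05 (SE). Of 6 metallocarboxypeptidases, 0 were called in edgeR (0 with unadjusted p below 0.05) and 0 in DESeq2, with a median of 0.04. egl-21, the carboxypeptidase E of neuropeptide processing and also a neuron marker here, had a log2 fold change of 0.15 ± 0.09, and cpd-1, a carboxypeptidase D, of -0.07 ± 0.05 (SE). Of 8 trypsin-like serine proteases tested, 0 were called in edgeR (1 lower with unadjusted p below 0.05) and 0 in DESeq2, with a median of -0.08. Within batches 2, 3 and 4 their median log2 ratio was 0.15, -0.18 and -0.51. The fitted values were -0.59 ± 0.23 for try-5, at 0.71 to 1.31 CPM in all libraries, and -0.10 ± 0.05 for try-1 (log2 fold change, SE).

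The aspartyl proteases and the cysteine cathepsins, which digest proteins in the lumen of the gut and in lysosomes, had medians close to that of the ctsa genes. Of 13 aspartyl proteases tested, 3 rose in edgeR: asp-5 (log2 fold change 1.03 ± 0.05), asp-12 (1.00 ± 0.08) and asp-2 (0.70 ± 0.03, SE). Over the list, 8 were higher and 1 lower with unadjusted p below 0.05, DESeq2 called 7 higher and 0 lower, and the median was 0.51. Of all 15519 genes tested, 0.0902% were called higher in edgeR, and 775 were higher and 882 lower with unadjusted p below 0.05. DESeq2 called 244 of all genes higher and 97 lower. Of 11 cysteine cathepsins, 0 were called in edgeR (7 higher and 1 lower with unadjusted p below 0.05), while DESeq2 called 5 higher and 1 lower, and the median was 0.40. cpr-8 had a log2 fold change of 0.72 ± 0.07 and cpr-3 of -0.82 ± 0.10 (SE). asp-1 and cpr-6 of these lists are also among the intestine markers. Over all genes no call was left when batch 4 or 1 of its libraries was taken out, so the 3 calls of aspartyl proteases also ended there, as they did without the batch as a block. Without the batch 3 library of either diet, 1 of the 3, asp-5, was called.

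Lysosomal enzymes and membrane proteins of other kinds were centred on 0. Of 40 tested, 0 were called in edgeR (7 higher and 6 lower with unadjusted p below 0.05), and DESeq2 called 2 higher and 1 lower. Of their log2 fold changes, 19 were above 0 and 21 below, with a median of -0.0044. The 2 with the smallest p in edgeR lay on opposite sides of 0 and did not pass there, while DESeq2 called both. In the edgeR fit asah-1, an acid ceramidase, was at 0.70 ± 0.11 and asm-3, an acid sphingomyelinase, at -0.96 ± 0.12 (log2 fold change, SE). A difference between any of these lists and the 6 genes was not tested.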

How the data were processed

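Messenger RNA was captured on beads and made into stranded KAPA libraries, per the labels' protocols. Tools named in the submitters' processing notes are HTSeq 2.01, TopHat2 2.1.1, cutadapt 2.10 and DESeq2 1.36.0, with the build WBcel235. Their settings, and whether counting used the strand, are not given there. The table the authors deposited has whole-number counts for 22416 of 46934 rows, a signal that is the count over 1 size factor per library, and a batch-corrected score, which goes below 0 in 43 cases. The deposited counts entered the tests, and the batch-corrected values 1 alternative.

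edgeR 4.0.16 in R 4.3.3 was run on all genes: filterByExpr with a minimum count of 10 left 15519, TMM scaled the libraries, and glmQLFit with diet and batch (2 residual degrees of freedom) was tested by glmQLFTest with Benjamini-Hochberg adjustment. Both batch terms were tested together. Each SE is the absolute log2 fold change divided by the root of its F statistic. DESeq2 1.42.0 was an alternative. The script was also run on counts simulated from the fitted model, which checks the code and not the calls made here. Pairing comes from the batch labels: deviations of libraries of 1 batch from their group means had an r across genes of 0.71 in batch 2, 0.47 in batch 3 and 0.66 in batch 4. Exon lengths and coordinates come from Ensembl release 115, in which 22406 counted genes were found.

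The members, lists, fits and alternatives were chosen with earlier results of these data known. The text names the 6 members, gtr-1, genes that overlap or adjoin a member where a result turns on them, the genes nearest in profile (5 for ctsa-4.1, 3 for each other member), and of each list the genes called or else the 2 with the smallest p. A list by protein similarity was planned and is not analysed here. Precision depends on depth: counts of the 6 members ran from 412 to 4165 per library.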

Additional observations from a re-analysis of the deposited data

How the results depend on the processing

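The fit without the replicate block called 0 of the 6 genes between diets (3 at an unadjusted p under 0.05). A minimum count of 50 also called 0 (4 unadjusted), against 1 in the paired fit (4 unadjusted). No filter and DESeq2 size factors each called 2 (ctsa-4.1 and pcp-2), and DESeq2 called 3 (those and pcp-5). Leaving out a batch or a library gave 0 to 3: 0 (3 unadjusted) when batch 4 or 1 of its libraries was absent, and 3 when batch 2 or 1 of its libraries was. Over all genes, against 14 higher and 0 lower, calls were 1 and 0 without the block, 123 and 42 with no filter, 6 and 0 with the stricter one, 745 and 420 without batch 2, and 0 and 0 without batch 4. The log2 fold changes of ctsa-4.1, pcp-2, pcp-4 and pcp-5 kept their sign in all 15 alternatives; the lowest value of ctsa-4.1 was 1.03, on the authors' batch-corrected values (log2 of value plus 1), where pcp-2 was 0.40. pcp-1 turned to -0.0632 without the block and ran from -0.0787 to 0.399 with a library or batch left out, and pcp-3 from -0.171 to 0.127. Between batches, 3 of the 6 genes were called without the diet in the model (pcp-1, pcp-3 and pcp-4), and 0 to 6 with a library or batch left out, which was added after seeing the data; all genes called fell to 356 without batch 2 and 3322 without the batch 4 RNAi-labelled library, against 6721. The causes were not tested. Coding length in place of exon length left all 6 genes in place in the level order of RNAi-labelled libraries and 4 of 6 in that of empty vector libraries.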
